A study of Homo sapiens with 4 samples.

Results

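The collagen and keratin genes comprised 97 of the 19122 protein-coding RefSeq genes on chromosomes 1 to 22, and were taken by symbol: 42 collagen chains (COL, a type number, A and a chain number) and 55 keratins (KRT and a number). Both families were selected on measured values, namely the low share of their members with a PPARα peak, so those shares describe how the families were picked and carry no test. The peaks came from CUT&Tag, which maps where an antibody target sits by cutting and tagging the DNA beside it with a tethered transposase. The cells were NB4, an established human acute promyelocytic leukemia line with a fused PML and RARA gene. One library was made with an antibody against PPARα and 1 with an antibody against PML/RARA, each labelled as treatment with no agent named, and an IgG library labelled as control was named for each. The data analysed were 2 peak lists, 1 per antibody, with no replicate, so no difference could be tested against variation between libraries. The part of the fusion that the PML/RARA antibody binds is not stated, and the IgG libraries were not analysed here.

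Collagens are secreted triple-helical proteins of the extracellular matrix, made mainly by fibroblasts, cartilage and bone cells, and by cells that lie on basement membranes. Keratins are intermediate filament proteins of epithelia, hair and nail. Each filament pairs an acidic type I keratin with a basic type II keratin, and most of their genes sit in a type I array on chromosome 17 and a type II array on chromosome 12. Neither family is known for a role in promyelocytes. PPARα is a fatty acid-sensing nuclear receptor, and PML/RARA is the fusion receptor that blocks granulocytic maturation in this leukemia. Expression was not measured in these lists, so whether NB4 cells transcribe any of the genes is not known from them.

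On the chromosomes used, the PPARα list held 9573 peaks and the PML/RARA list 45085. Each peak has the authors' fold enrichment, a linear ratio over background, and their −log10 q. These are the authors' values, and serve here only to describe and rank peaks within a list. PPARα peaks had a median fold of 6.26 and a median −log10 q of 6.33, and PML/RARA peaks a median fold of 7.39 and a median −log10 q of 11.9. The sequencing depth behind the lists is unknown, so the absence of a listed peak does not show the absence of binding. A gene had an end peak when a peak overlapped the 1 kb on either side of its annotated start or finish. A peak inside the gene and clear of both windows was a body peak.

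Hardly any member carried PPARα at an end. COL5A2, which encodes a regulatory chain of fibrillar collagen V, was the 1 collagen of 42 with a PPARα end peak (2.38%, exact Clopper-Pearson 95% interval 0.0603 to 12.6), where 32.8% of all protein-coding genes had one. None of the 55 keratins had a PPARα end peak (interval 0 to 6.49%). PML/RARA end peaks lay at 13 of 42 collagens (31.0%, 17.6 to 47.1) and at 4 of 55 keratins (7.27%, 2.02 to 17.6), where 58.8% of all protein-coding genes had one. These intervals cover counting over genes only, and neighbouring genes are not independent of each other. Those for PPARα do not allow for the picking of the families by a low PPARα share. In all, 27 of 42 collagens and 10 of 55 keratins had a peak of either antibody at an end or in the body, as did 71.2% of all protein-coding genes.

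Inside the genes, collagens had peaks of both antibodies and keratins of PML/RARA alone. PPARα body peaks lay in 10 of 42 collagens (23.8%, 12.1 to 39.5) and in 0 of 55 keratins, where 10.7% of all protein-coding genes had one. PML/RARA body peaks lay in 24 of 42 collagens (57.1%, 41.0 to 72.3) and in 6 of 55 keratins (10.9%, 4.11 to 22.2), where 37.3% of all protein-coding genes had one. PPARα body peaks with no PPARα end peak lay in the same 10 of 42 collagens (23.8%), against 7.32% of all protein-coding genes. The families were picked for a low PPARα share, so this contrast carries no test. PML/RARA body peaks with no PML/RARA end peak lay in 14 of 42 collagens (33.3%) and 6 of 55 keratins (10.9%). The share over all protein-coding genes was 11.8%.

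Gene length differed between the families, so the shares were also counted within length classes. The median length was 133028 bases for collagens and 6433 bases for keratins, and 24490 bases for all protein-coding genes. Among genes of 10 to 50 kb, PML/RARA end peaks lay at 8 of 12 collagens and at 65.8% of all protein-coding genes, and PPARα end peaks at 0 of 12 collagens and at 37.0% of all protein-coding genes. In the longer classes PML/RARA end peaks lay at 1 of 6 collagens of 50 to 100 kb (64.2% of all protein-coding genes), 1 of 12 of 100 to 200 kb (58.4%) and 3 of 12 over 200 kb (43.0%). With the 1 kb window at either end, the PML/RARA share of collagen ends was thus lower than that of all protein-coding genes in these longer classes alone. The classes hold 6 to 12 collagens each, and other windows were not counted by length. In the bodies of genes of 10 to 50 kb, PPARα peaks lay in 2 of 12 collagens (8.04% of all protein-coding genes) and PML/RARA peaks in 9 of 12 (41.5%). In those of 50 to 100 kb, PPARα peaks lay in 2 of 6 collagens (17.2% of all protein-coding genes) and PML/RARA peaks in 4 of 6 (51.6%). Among genes of 100 to 200 kb, PPARα body peaks lay in 4 of 12 collagens and in 25.1% of all protein-coding genes, and PML/RARA body peaks in 6 of 12 collagens and in 57.6% of all protein-coding genes. Among genes over 200 kb, PPARα body peaks lay in 2 of 12 collagens and in 29.0% of all protein-coding genes, and PML/RARA body peaks in 5 of 12 collagens and in 56.3% of all protein-coding genes. The 6.33 Mb of collagen bodies held 16 PPARα summits, or 2.53 per Mb, where the bodies of all protein-coding genes held 2.05 per Mb. For PML/RARA the densities were 18.3 per Mb in collagens and 16.3 per Mb in all protein-coding genes. Keratin bodies, 0.4 Mb in all, held 0 PPARα summits and 15 PML/RARA summits, or 37.5 PML/RARA summits per Mb. These 15 are placed by summit, and the 14 keratin body peaks by the whole peak. Without COL23A1 the collagen densities were 2.01 per Mb for PPARα and 14.9 per Mb for PML/RARA in the other 41 collagens. Among genes under 10 kb, which hold 42 of the keratins, PML/RARA end peaks lay at 3 of 42 keratins and at 2664 of all 5325 protein-coding genes of that length. PPARα end peaks lay at 0 of these 42 keratins and at 1329 of the 5325 genes. PML/RARA body peaks lay in 1 of 42 keratins under 10 kb (11.6% of all protein-coding genes) and in 4 of 12 keratins of 10 to 50 kb (41.5%).

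**Figure D1:**
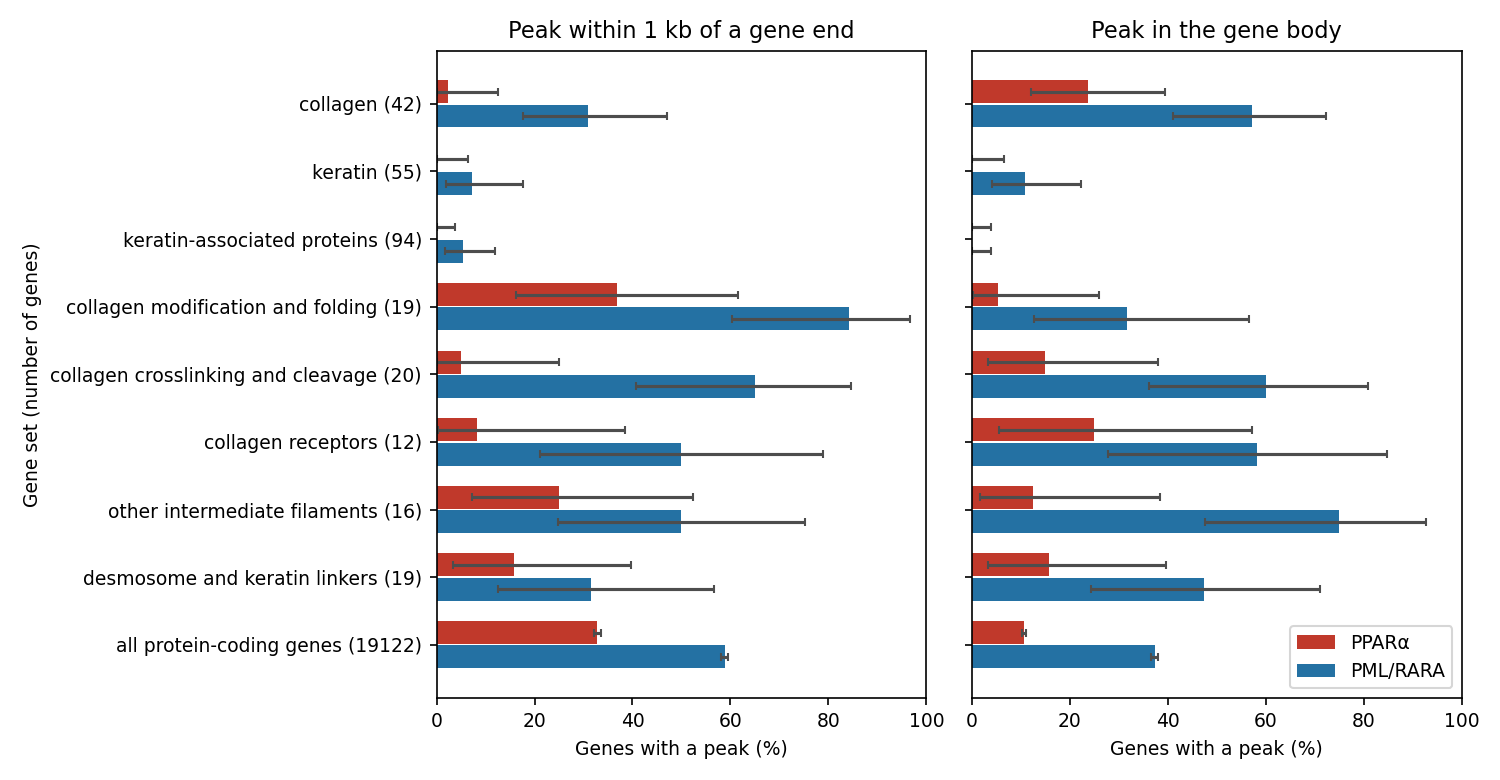
Share of genes (%) with a PPARα peak (red) or a PML/RARA peak (blue) within 1 kb of a gene end (left) or in the gene body (right), for collagens, keratins, related gene lists and all protein-coding genes, with the number of genes in brackets and exact 95% intervals as bars. At gene ends both families lie below all protein-coding genes (32.8% for PPARα, 58.8% for PML/RARA). In bodies the collagens reach 23.8% for PPARα and 57.1% for PML/RARA, against 10.7% and 37.3% of all protein-coding genes. The bars do not allow for gene length, whose median is 133028 bases for collagens and 24490 bases for all protein-coding genes.

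The sequences shown are the strip next to COL5A2, the promoters of members that a peak covered, and a pair of unmarked promoters for contrast. RefSeq promoter windows (GRCh38.p14, the assembly of hg38) were matched for 30 of 42 collagens and 34 of 55 keratins. Each line gives the 250 bases before an annotated start on the gene's own strand, and capitals mark CpG dinucleotides. The first is the promoter of WDR75, a ribosome biogenesis gene and neighbour of COL5A2, at chr2:189441224-189441473 on the plus strand. It was added after the values were seen, because the 1 PPARα end peak among the members ran into it. COL23A1 (chr5:178590394-178590643, minus strand) was covered by a PML/RARA end peak. COL27A1 (chr9:114155287-114155536, plus strand) and COL18A1 (chr21:45455272-45455521, plus strand) were covered by PML/RARA body peaks at starts inside the annotated gene. COL4A2 (chr13:110307034-110307283, plus strand) and KRT5 (chr12:52520395-52520644, minus strand) were covered by no peak. KRT5 was planned together with COL1A1, which had no promoter window. COL4A2 is shown in its place and was not a planned choice.
WDR75: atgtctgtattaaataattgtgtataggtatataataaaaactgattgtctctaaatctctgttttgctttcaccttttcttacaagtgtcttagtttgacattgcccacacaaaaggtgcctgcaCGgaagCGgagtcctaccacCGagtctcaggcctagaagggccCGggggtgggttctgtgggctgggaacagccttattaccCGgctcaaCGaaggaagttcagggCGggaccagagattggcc
COL23A1: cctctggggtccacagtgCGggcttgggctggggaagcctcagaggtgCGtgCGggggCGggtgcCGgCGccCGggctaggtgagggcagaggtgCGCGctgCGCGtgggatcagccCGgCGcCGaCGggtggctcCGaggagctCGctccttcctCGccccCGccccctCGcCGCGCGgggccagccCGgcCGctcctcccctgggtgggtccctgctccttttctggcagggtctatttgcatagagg
COL27A1: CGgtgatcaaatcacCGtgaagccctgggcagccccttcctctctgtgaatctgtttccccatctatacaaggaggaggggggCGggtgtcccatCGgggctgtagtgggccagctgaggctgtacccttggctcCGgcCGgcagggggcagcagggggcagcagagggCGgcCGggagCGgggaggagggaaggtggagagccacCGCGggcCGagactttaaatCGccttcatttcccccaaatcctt
COL18A1: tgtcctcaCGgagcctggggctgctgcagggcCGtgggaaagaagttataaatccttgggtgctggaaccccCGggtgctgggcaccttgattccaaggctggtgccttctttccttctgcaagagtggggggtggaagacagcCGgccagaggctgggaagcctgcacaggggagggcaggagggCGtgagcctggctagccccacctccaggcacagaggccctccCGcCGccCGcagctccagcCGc
COL4A2: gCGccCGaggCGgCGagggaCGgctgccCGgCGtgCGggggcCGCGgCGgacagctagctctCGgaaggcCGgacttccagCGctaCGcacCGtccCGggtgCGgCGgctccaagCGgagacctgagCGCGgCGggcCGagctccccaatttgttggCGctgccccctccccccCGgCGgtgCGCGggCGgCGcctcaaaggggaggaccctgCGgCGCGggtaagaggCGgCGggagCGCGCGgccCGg
KRT5: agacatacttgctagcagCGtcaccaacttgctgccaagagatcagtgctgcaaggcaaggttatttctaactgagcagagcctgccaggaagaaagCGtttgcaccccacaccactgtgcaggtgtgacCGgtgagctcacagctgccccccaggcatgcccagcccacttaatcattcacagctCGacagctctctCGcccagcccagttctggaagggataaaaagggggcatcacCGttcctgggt

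The printed promoters differed widely in CpG content. There were 7 CpG in the 250 bases of WDR75, 25 in COL23A1, 13 in COL27A1, 9 in COL18A1, 40 in COL4A2 and 6 in KRT5, the keratin of basal epidermal cells. The GC content was 47.6% for WDR75, 74.4% for COL23A1, 78.8% for COL4A2 and 56.0% for KRT5. Among all promoter windows of protein-coding genes with 20 or more CpG in their 300 bases, PPARα peaks covered 42.0% and PML/RARA peaks 72.3%. COL4A2, a single example that was not planned, had 45 CpG in that window and was covered by neither. Among windows with fewer than 5 CpG the shares were 1.09% for PPARα and 5.68% for PML/RARA. A comparison of promoter CpG content over the families is void, since 71.4% of collagens and 61.8% of keratins had a window, under the 80% set for such a check. The letters AGGTCA, the half-site of nuclear receptors, were on neither strand of the 6 printed promoters, and were in 11.9% of all promoter windows. The half-site repeated in tandem with 1 base between (DR1) was in 0.0236% of all windows and in none of the 6. GGGCGG, the GC box, was in 5 of them, all but KRT5, and in 56.6% of all windows, and TATAAA was in COL18A1 alone, and in 9.51% of all windows. Both strands were searched, DR1 contains the half-site, and the shares are over windows that run 50 bases past the start.

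The peak at COL5A2 lay between 2 genes. COL5A2 is annotated at chr2:189031898-189441111, and WDR75 begins after a gap of 362 bases, at 189441474. The PPARα peak ran from 189440849 to 189441466 and ended short of the WDR75 start. Its fold was 10.2, higher than 88.3% of PPARα peaks, and its −log10 q was 17.2. Its summit was 46 bases from the end of COL5A2 and 317 bases from WDR75. A PML/RARA peak of fold 6.70 (189440920 to 189441218) and another of fold 6.01 (189441380 to 189441564) overlapped it. The first lay wholly inside the PPARα peak, and the second crossed its edge on the WDR75 side, with its summit on the annotated start of that gene. COL5A2 was the single member with end peaks of both antibodies, and every one of these peaks lay within 1 kb of WDR75 too. COL3A1, the fibrillar collagen III gene that neighbours COL5A2, had no peak, and the nearest PPARα peak was this one, 428103 bases away.

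**Figure D2:**
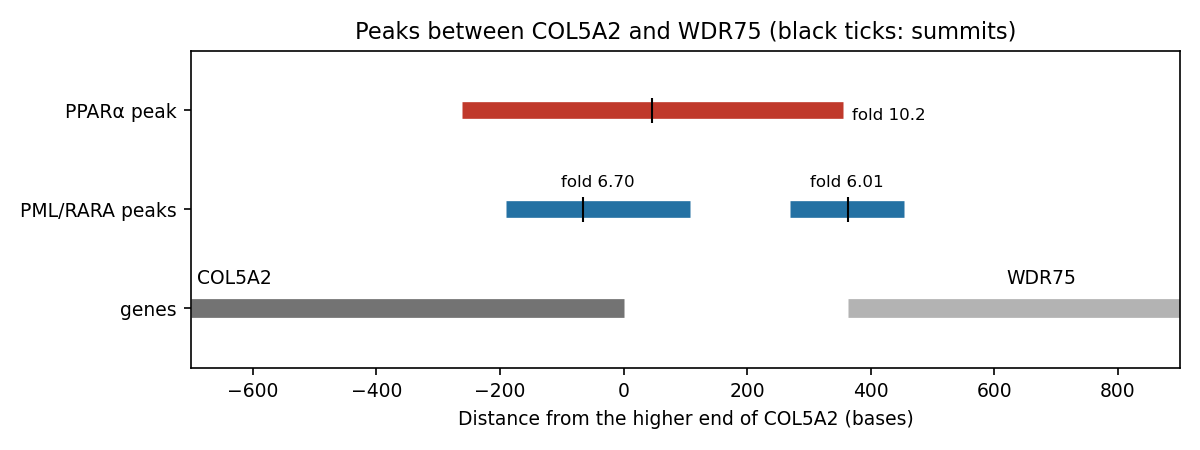
Peaks of PPARα (red) and PML/RARA (blue) at the COL5A2 end and the start of WDR75, by distance in bases from the higher end of COL5A2; grey bars are the annotated genes and black ticks the summits. The PPARα peak (fold 10.2) runs from inside COL5A2 to just short of the WDR75 start, one PML/RARA peak (fold 6.70) lies inside it and another (6.01) crosses its edge at WDR75.

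Several PML/RARA end peaks were shared with neighbours as well. Of the 19 distinct PML/RARA peaks at collagen ends, 5 lay within 1 kb of an end of another protein-coding gene. COL7A1, the anchoring fibril collagen of skin, had PML/RARA peaks of fold 10.3 and 3.81 at its finish. Their summits were 178 bases (inside the gene) and 303 bases (outside it) from the finish of COL7A1. The same summits were 470 and 11 bases from an end of UCN2, a urocortin peptide gene. COL9A3, a cartilage collagen chain gene, had a PML/RARA peak of fold 4.39 whose summit was 856 bases from its end and 702 bases from the transcription factor gene TCFL5. Counting no peak shared in this way left 0 collagens with PPARα, where 20.7% of all protein-coding genes had such an unshared end peak, and 10 collagens and 4 keratins with PML/RARA, where 42.7% of all protein-coding genes had one. This count was added after the data were seen.

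The fibrillar collagens had PML/RARA end peaks at 4 of 11 (interval 10.9 to 69.2%), against 58.8% of all protein-coding genes. COL1A1, the main chain of bone and skin collagen I, had a PML/RARA peak of fold 11.7 and −log10 q of 23.6 with its summit 883 bases from the gene's higher end. It had no PPARα peak within 43615 bases. COL5A3 had a PML/RARA peak of fold 8.73 with its summit 934 bases from the start. COL11A2 had one of fold 5.51 near its finish, 1072 bases from it by summit, so the peak edge alone reached the window. COL1A2, the partner chain of COL1A1 in collagen I, had no peak of either antibody, and the nearest lay 78794 bases away for PPARα and 78762 bases away for PML/RARA.

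The highest-scoring end peak of any member lay at COL9A2, a chain of the cartilage collagen IX. It was a PML/RARA peak of fold 26.9 and −log10 q of 292 (chr1:40299478-40300002), higher in fold than 98.5% of that list. Its summit lay 779 bases from the finish of COL9A2 and 5530 bases from the nearest other protein-coding gene, ZMPSTE24. Among the other fibril-associated collagens, COL20A1 had a PML/RARA end peak of fold 6.27 with its summit 675 bases from the gene's lower end, and COL19A1 one of fold 4.28, which was 824 bases from the start. The COL19A1 fold and its −log10 q (2.91) recurred together at 986 PML/RARA peaks of the whole list. None of these 3 genes had a PPARα peak. In total, PML/RARA end peaks lay at 4 of 10 fibril-associated collagens (interval 12.2 to 73.8%), against 58.8% of all protein-coding genes. PPARα end peaks lay at 0 of 10 (0 to 30.8%), against 32.8%.

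Other marked ends belonged to beaded filament and transmembrane collagens. COL6A1, a chain of the microfibril collagen VI, had PML/RARA peaks of fold 13.2 and 9.52 at its lower end, with summits 214 and 3 bases from it, and one of fold 3.11 at its higher end. Both lower-end peaks also lay within 1 kb of the noncoding gene LOC105372841. COL6A2 had a PML/RARA peak of fold 4.01 whose summit was 466 bases from its start, within 1 kb of the noncoding COL6A2-DT as well. COL13A1, a transmembrane collagen of muscle and nerve contacts, had PML/RARA peaks of fold 7.35 and 4.17 near its finish. COL23A1, also a transmembrane collagen, had PML/RARA peaks of fold 7.71 and 5.87 at its start, with summits 49 and 468 bases from it. The stronger of these was the only end peak that covered a member's own promoter window among those with a sequence. Of the 19 PML/RARA peaks at collagen ends, 12 had a fold below the list median, and their median fold was 6.27.

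At keratin ends there were 5 peaks, all of PML/RARA, and 4 of them had a fold below the list median. KRT3, a cornea keratin, had the exception, a peak of fold 10.01 and −log10 q of 15.02, with its summit 717 bases from the finish. KRT85, a hair keratin, had peaks of fold 6.08 and 5.42 at its finish, with summits 50 and 1140 bases from it. KRT10, the keratin of differentiating epidermis, and KRT23 had 1 peak each, of the same fold (5.71) and the same −log10 q (5.34). This pair of values recurred at 710 PML/RARA peaks of the whole list, among them 4 in the members (KRT10, KRT23, COL23A1 and COL28A1). The KRT10 peak also lay within 1 kb of the antisense gene KRT10-AS1, and the KRT23 summit lay inside the gene, 1000 bases from its higher end. All 4 keratins lacked a PPARα peak. The closest PPARα peak to any keratin was 10693 bases from KRT80, and the median distance from a keratin end to a PPARα peak was 220893 bases, against 42932 bases for collagens and 16312 bases for all protein-coding genes. For PML/RARA the medians were 16342 bases for keratins, 7404 bases for collagens and 138 bases for all protein-coding genes.

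The keratin arrays differed from each other in PML/RARA peaks. On chromosome 12 the 27 keratins span 0.784 Mb (chr12:52168996-52952906), which held 2 PPARα summits and 35 PML/RARA summits. That is 44.6 PML/RARA summits per Mb, against 18.8 per Mb over the whole chromosome. On chromosome 17 the 28 keratins span 0.970 Mb (chr17:40654665-41624575) together with 34 keratin-associated protein genes, and this span held 0 PPARα and 7 PML/RARA summits. That is 7.22 PML/RARA summits per Mb, against 39.9 per Mb over that chromosome. For PPARα the densities were 2.55 per Mb in the chromosome 12 span, against 4.24 per Mb over the chromosome, and 0 in the chromosome 17 span, against 6.39 per Mb.

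Within the chromosome 12 array the PML/RARA peaks gathered at the edges. The first 200 kb, from KRT80 past KRT7 and KRT86 to KRT85, held 23 of the 35 PML/RARA summits. The next 500 kb, with KRT5 and KRT1 among others, held 6, and the last stretch, around KRT8, held 6. KRT7, a keratin of simple glandular epithelia, had 4 PML/RARA body peaks, the strongest of fold 17.2 and −log10 q of 82.5. That peak also lay within 1 kb of the antisense gene KRT7-AS. KRT86, a hair keratin, also had 4, of fold 6.91 at most. KRT8, the type II keratin of simple epithelia, had 3 PML/RARA body peaks with folds of 13.4, 7.68 and 7.15. Between KRT8 and its neighbour a PPARα peak of fold 4.67, 17093 bases from KRT8, overlapped a PML/RARA peak of fold 16.1. KRT18, the type I partner of KRT8, whose annotated span overlaps the far end of KRT8, had no peak, and its nearest PML/RARA peak was 21086 bases away. KRT80 (fold 10.1), KRT78 (4.19) and KRT83 (3.39) had 1 PML/RARA body peak each.

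In the chromosome 17 array 5 of the 7 PML/RARA summits lay beyond the first 700 kb. The strongest, of fold 17.9 and −log10 q of 67.0, was 17584 bases from KRT9, the keratin of palm and sole skin. Others had a fold of 16.7 at 3913 bases from KRT13 and of 15.6 at 2458 bases from KRT14, the type I partner of KRT5. These lay outside every keratin window. KRT14, KRT19, KRT5 and KRT1 had no peak, with PPARα peaks no nearer than 92098 bases for KRT14, 150685 for KRT19, 311398 for KRT5 and 199377 for KRT1.

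**Figure D3:**
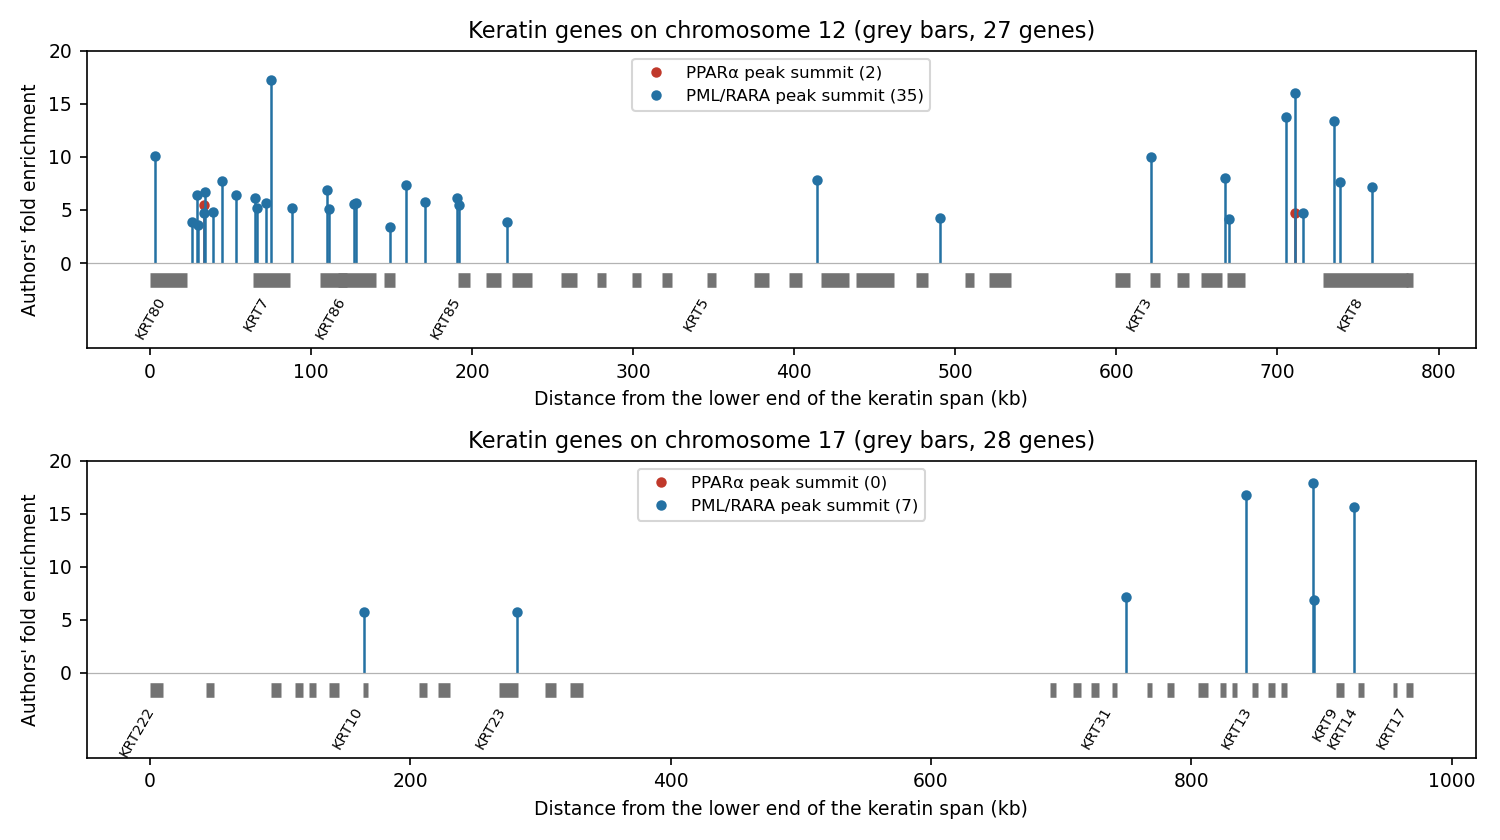
Peak summits in the keratin arrays of chromosomes 12 and 17, by distance in kb from the lower end of each span, with the authors' fold enrichment as height (PPARα red, PML/RARA blue) and keratin genes as grey bars. The 35 PML/RARA summits on chromosome 12 crowd toward both edges, the chromosome 17 span has 7, and the 2 PPARα summits lie between genes on chromosome 12.

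PPARα in collagen bodies was spread over 10 genes and weak. The 16 body peaks had a median fold of 4.99 (range 3.57 to 7.78), against 5.62 for the 2279 PPARα body peaks of all protein-coding genes. Of the 16, 14 had a fold below the median of the whole PPARα list. COL13A1 (fold 7.78, −log10 q 9.78) and COL9A3 (7.35, 8.76) carried the strongest. COL15A1, a basement membrane zone collagen, had 3 PPARα peaks with folds of 5.55, 5.08 and 4.66. COL10A1, the collagen of growth plate cartilage, had a PPARα peak of fold 5.75 that lay in NT5DC1 as well, since the 2 annotated genes overlap. COL17A1, the hemidesmosome collagen of basal keratinocytes, had 1 of fold 4.72, COL4A1 1 of 4.13 and COL8A2 1 of 4.13.

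Most of these PPARα body peaks coincided with PML/RARA. In collagens 11 of 16 (68.8%) overlapped a PML/RARA peak by 1 base or more, against 83.2% of PPARα body peaks in all protein-coding genes. In the other direction 12 of 116 PML/RARA body peaks in collagens (10.3%) overlapped a PPARα peak, against 11.4% in all protein-coding genes. The 14 PML/RARA body peaks in keratins overlapped none. Where both coincided, the PML/RARA fold ran from 3.93, in COL26A1, to 19.1, in COL4A1. It was 15.9 in COL9A3, 14.3 and 8.30 in COL15A1, 13.5 and 7.30 in COL23A1, and 17.2 at another COL26A1 peak. COL4A2 had 8.81, COL17A1 8.48, COL13A1 7.08 and COL10A1 4.28. Peaks of PPARα without PML/RARA lay in COL8A2, in COL15A1 (fold 4.66), in COL26A1 (3.80) and at 2 sites of COL23A1 (5.72 and 5.55).

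COL23A1 held more peaks than any other member. Its 352776 bases (chr5:178237618-178590393) carried 4 PPARα and 27 PML/RARA body peaks, or 11.3 PPARα and 76.5 PML/RARA peaks per Mb. Among the 1340 protein-coding genes of at least 200 kb, 98.4% had fewer PPARα body peaks and 99.0% had fewer PML/RARA body peaks. The strongest PML/RARA peaks had folds of 26.7 at 4704 bases from the start, 21.9 at 147544 bases and 21.0 at 54913 bases. The 4 PPARα peaks had folds of 5.87, 5.72, 5.55 and 4.90 and −log10 q from 3.39 to 5.41. All 4 lay in the first 150 kb, the nearest of them 51.3 kb from the start. Of the 29 PML/RARA peaks at the start or inside, 22 lay in the first 150 kb.

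COL4A2, a basement membrane collagen IV chain, followed with 14 PML/RARA body peaks and 1 PPARα body peak in 205926 bases. It starts head to head with COL4A1, and no peak of either antibody lay at that shared start, the CpG-rich promoter shown above. The first PML/RARA summit of COL4A2 came 95.6 kb into the gene. Its strongest had folds of 28.4 and 26.4, above 99.0% and 98.3% of the list, and the PPARα peak (3.57, −log10 q 1.45) lay 203 kb in, 2909 bases from the finish. COL4A1 had 4 PML/RARA body peaks, of fold 19.1 at most. The other head-to-head pair, COL4A3 and COL4A4, which encode the collagen IV of kidney filters, had no peak of either antibody. COL26A1 had 10 PML/RARA body peaks, 7 of them in the first 60 kb and the strongest of fold 23.9, with PPARα peaks of 4.22 and 3.80. COL18A1, the precursor of endostatin, also had 10, of fold 8.03 at most, and COL5A1 had 8, of fold 6.91 at most, and neither had PPARα. Some long collagens had no peak, among them COL25A1 (493934 bases), COL24A1 (427752) and COL11A1 (232050). Of all protein-coding genes over 200 kb, 29.0% had a PPARα body peak and 56.3% a PML/RARA body peak. In all, 15 of 42 collagens had no peak and 27 had one, where 71.2% of all protein-coding genes had one.

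**Figure D4:**
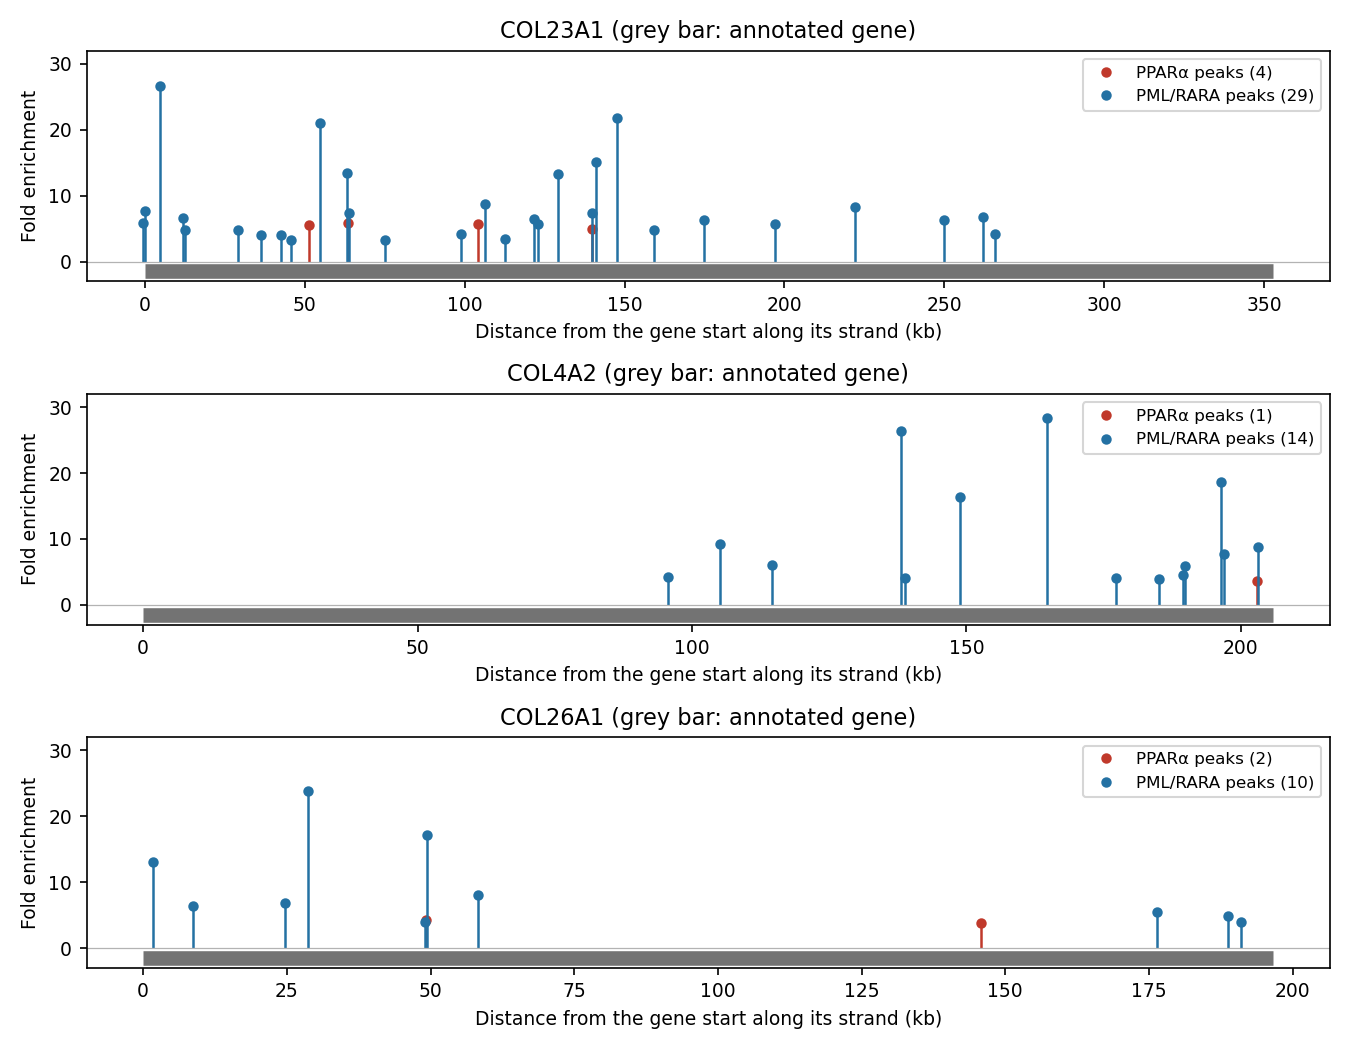
Peaks at and in COL23A1, COL4A2 and COL26A1 by distance in kb from the gene start, with the authors' fold enrichment as height (PPARα red, PML/RARA blue) and the annotated gene as a grey bar. COL23A1 carries 4 PPARα and 29 PML/RARA peaks in all, and COL4A2 has none in its first 95 kb.

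**Figure D5:**
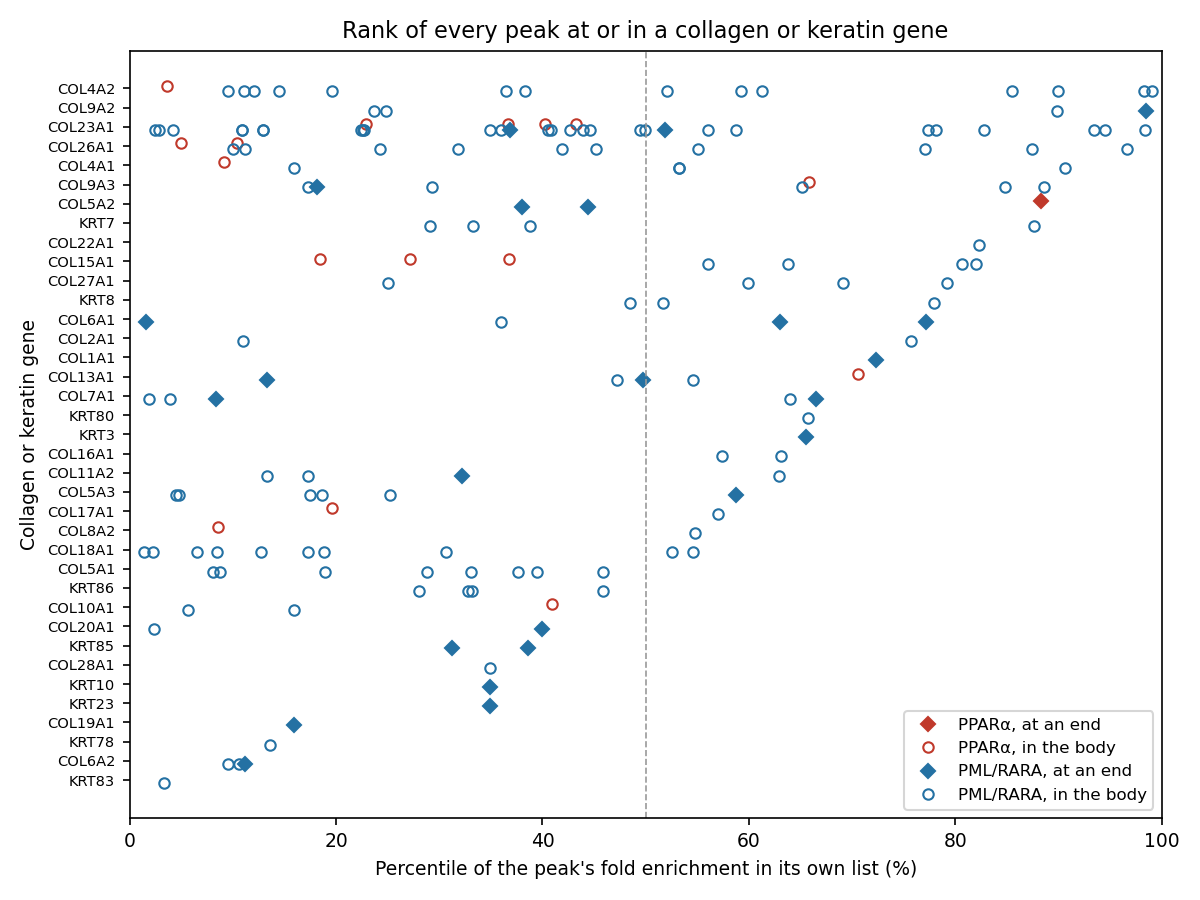
Percentile of the fold enrichment of every peak at or in a member within its own list, with PPARα in red, PML/RARA in blue, filled diamonds for end peaks and open circles for body peaks, and the list median dashed. The PPARα end peak of COL5A2 stands at 88.3%, and 14 of 16 PPARα body peaks are left of the median.

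The structural classes of collagens, which also differ in gene length, were counted beside the body shares of all protein-coding genes (10.7% for PPARα, 37.3% for PML/RARA) and their end shares (32.8% for PPARα, 58.8% for PML/RARA). Transmembrane collagens had body peaks of PPARα in 3 of 4 and of PML/RARA in 3 of 4, and end peaks of PPARα in 0 of 4 and of PML/RARA in 2 of 4. Basement membrane collagens had body peaks of PPARα in 2 of 4 and of PML/RARA in 2 of 4, and no end peak of either antibody. Fibrillar collagens had body peaks of PPARα in 0 of 11 and of PML/RARA in 5 of 11, and end peaks of PPARα in 1 of 11 and of PML/RARA in 4 of 11. Beaded filament collagens had no PPARα peak, and PML/RARA lay in the body of 2 of 5 and at an end of 2 of 5. Network and other collagens had body peaks of PPARα in 3 of 6 and of PML/RARA in 5 of 6. Their end peaks numbered 0 of 6 for PPARα and 1 of 6 for PML/RARA. The multiplexins COL15A1 and COL18A1 had body peaks of PPARα in 1 of 2 and of PML/RARA in 2 of 2, and no end peak. Fibril-associated collagens had body peaks of PPARα in 1 of 10 and of PML/RARA in 5 of 10. The window changed the PPARα end count of collagens. Widened to 5 kb, it took in COL4A2, COL8A2 and COL17A1, whose body peaks lay 2398, 4588 and 4652 bases from an end, which made 4 of 42 collagens (39.3% of all protein-coding genes at that width). PML/RARA end peaks then lay at 21 of 42 collagens and 16 of 55 keratins, and at 69.4% of all protein-coding genes.

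Genes that act on collagens and keratins were counted beside the end shares of all protein-coding genes, 32.8% for PPARα and 58.8% for PML/RARA. The enzymes and chaperones that modify and fold collagen had PPARα end peaks at 7 of 19 (36.8%) and PML/RARA end peaks at 16 of 19 (84.2%). Among them were PPIB, the prolyl isomerase of procollagen (PPARα fold 14.02, PML/RARA fold 22.1), P4HA1 (11.9, 29.6) and P4HB (11.9, 18.9), the subunits of prolyl 4-hydroxylase, and SERPINH1, the collagen chaperone (6.24, 9.79). PPARα lay at the end of 1 of 20 crosslinking and cleaving enzymes (TLL2, fold 5.51) and PML/RARA at 13 of 20, among them MMP9 (fold 8.36), the neutrophil gelatinase. Collagen receptors had PPARα at 1 of 12 (MRC2, 5.09) and PML/RARA at 6 of 12, including OSCAR (13.2) and LAIR1 (7.28) of leukocytes.

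Intermediate filament genes outside the keratins had PPARα end peaks at 4 of 16 and PML/RARA end peaks at 8 of 16. The end shares of all protein-coding genes were 32.8% for PPARα and 58.8% for PML/RARA, here and for the lists below. VIM, the vimentin gene of mesenchymal and blood cells, had a PPARα peak of fold 8.96 and a PML/RARA peak of fold 14.2. The lamin genes LMNB1 (6.58, 15.7) and LMNB2 (7.30, 12.7) had both, and LMNA had PML/RARA alone (9.65). Of 19 desmosome and keratin linker genes, 3 had PPARα and 6 had PML/RARA end peaks, with both at DST (7.08, 9.60), PLEC (5.97, 12.4) and JUP (5.51, 15.6). Keratin-associated protein genes, which encode the matrix proteins of hair, had PPARα at 0 of 94 (interval 0 to 3.85%) and PML/RARA at 5 of 94 (5.32%). Of 9 granulocyte genes, 1 (MPO, myeloperoxidase) had PPARα and 6 had PML/RARA end peaks. In their bodies PPARα peaks lay in 0 of 9 and PML/RARA peaks in 5 of 9, against 10.7% and 37.3% of all protein-coding genes. None of 6 epithelial markers had an end peak of either antibody, though 3 had a PML/RARA body peak, and 0 had a PPARα body peak. Of 6 fibroblast markers, 0 had a PPARα end peak and 2 (PDGFRB and TWIST1) a PML/RARA end peak, while 2 had a PPARα body peak and 3 a PML/RARA body peak. None of these lists was tested.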

How the data were processed

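CUT&Tag peaks of NB4 cells were used as deposited, in narrowPeak layout. Per the submitters' processing notes the build is hg38, and Bowtie2 2.2.9, SAMtools, MACS 1.4.2 and bedtools were used, their roles and settings unstated. That MACS version is not known to write narrowPeak files, and which release called the peaks is unsettled. The authors deposited a fold enrichment (a linear ratio over background) and p and q on the −log10 scale for each peak. The sources used here do not say whether IgG served as control. Peaks on chromosomes 1 to 22 were kept and starts written 1-based.

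Genes were protein-coding RefSeq genes of GRCh38.p14, the assembly of hg38. A peak overlapping 1 kb on either side of an annotated end was an end peak, and one inside the gene and outside both windows a body peak. Strand was known only for genes with a RefSeq promoter window. Overlap meant at least 1 shared base. The assignment matched a brute-force search on simulated data. Computation used Python 3.11.15, pandas 2.3.3 and scipy 1.17.1.

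No test was run: each antibody has 1 list. Members and lists were chosen with earlier results of these data known. Genes named were every member with PPARα, the 12 members with the highest PML/RARA end −log10 q, the 5 with most PML/RARA body peaks, members with a PPARα peak within 5 kb, 13 textbook genes, and up to 6 genes of each related list. Other genes were named after their values were seen. Alternatives were stricter lists, other windows, summits, a PML/RARA list of equal length, and other overlap rules.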

Additional observations from a re-analysis of the deposited data

How the results depend on the processing

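The 9 counts of members were recomputed under 60 alternatives, and 40 stayed within 1.5 times. The 2 keratin counts for PPARα were 0 in all of theirs. Collagens with PPARα at an end were 4 with windows of 5000 bases, 0 with gene starts only and 0 without peaks shared with another coding gene. Collagens with PML/RARA at an end (13) were 6 with windows of 500 bases, 21 with 5000 bases, 3 with the PML/RARA list cut to the PPARα number and 4 with starts only. For keratins (4) these were 1, 16, 0 and 0. Starts were known for 30 collagens and 34 keratins, and COL5A2 was not among them. Collagens with PPARα in the body alone (10) were 3 with −log10 q of at least 5 and 5 with fold of at least 5. With 5000 bases, 6 collagens and 1 keratin had PML/RARA in the body alone, and with the shortened list 5 and 2. Members whose PPARα end peak met PML/RARA (1) were 3 with 5000 bases, 0 with the shortened list and 0 where a single PML/RARA peak had to cover 0.5 of the PPARα peak. Among all protein-coding genes, windows of 5000 bases gave end shares of 39.3% for PPARα and 69.4% for PML/RARA. Without peaks shared with another coding gene they were 20.7% and 42.7%. No share of all protein-coding genes is given here for the other rules. Whether the members shifted more than all genes under those rules is therefore not known. The cause of these shifts was not tested beyond what each rule fixes. Depth is unknown, so absent peaks may lie below detection. No paired analysis was possible because each group has 1 library.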
